A study of Mus musculus with 15 samples.

Results

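The let-7 family of microRNAs (miRNAs), with its member mir-98, was followed in left ventricular (LV) heart tissue of 15 mice. The count table holds 1 row for each arm of each miRNA precursor, and the members were all rows whose name starts with let-7 or mir-98-. This gave 24 of 1836 rows, namely the 5p and the 3p arms of 12 precursors, of which 10 had at least 1 read and 14 were at 0 in all 15 libraries. The groups were 5 wild-type (wt) mice, 5 AGAT-/- mice, and 5 AGAT-/- mice given homoarginine by osmotic mini pump for 4 weeks (AGAT-/-hArg). AGAT, or arginine:glycine amidinotransferase, starts creatine synthesis and also makes homoarginine, and AGAT-/- mice are without this enzyme. All mice were littermates on a C57BL/6J background bred from heterozygous parents, and the wt and AGAT-/- mice without homoarginine carry the treatment label control. Age was not given in the labels. Each mouse gave its own library. Lane 8 held all wt and AGAT-/- libraries and lane 2 all those of AGAT-/-hArg mice, and the effects of lane and homoarginine cannot be told apart. The product of the targeted gene is not a miRNA, so the genotype labels were not checked in these counts.

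Total reads per library were 415608 to 486204 in wt mice (median 442725), 365634 to 557398 in AGAT-/- mice (median 454326) and 389359 to 570492 in AGAT-/-hArg mice (median 464886). Levels are given as CPM, the reads of a row scaled by the size of its library after TMM normalization, which corrects for differences in composition. A row at 0 is one to which the table assigns no reads, and sets no limit on the level of that miRNA in the tissue. Rows of the usual heart guides, such as the 3p arms of mir-1a and mir-133a, were also at 0, and the reason was not given in the sources used here. Between any 2 libraries of a group, the counts differed by more than sampling noise, with a chi-square of 2.54 to 16.8 for each degree of freedom over 30 pairs.

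The let-7 miRNAs were found as timers of development in worms, and in mammals they accumulate as cells differentiate. A miRNA binds target mRNAs mainly through its seed, a short stretch near the 5′ end, and for let-7 the targets include growth genes such as Ras, Hmga2 and Lin28. The 5p arm is the usual guide strand, the 3p arm is its partner in the duplex and is mostly degraded, and let-7 is abundant in adult heart muscle.

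Mature sequences were taken from RefSeq (GRCm38.p6), where 21 of the 24 rows found a match, including all 10 with reads. The following are printed 5′ to 3′ with the seed, bases 2 to 8, in capitals. The first lines show the 5p rows that had reads, each followed by a close relative whose row was at 0. They are shown because a single substitution lies between each row with reads and the relative without.
let-7c-2-5p: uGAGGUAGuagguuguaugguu
let-7a-1-5p: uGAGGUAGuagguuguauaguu
let-7k-5p: uGAGGUAGgagguugugug
let-7b-5p: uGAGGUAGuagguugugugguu
let-7j-5p: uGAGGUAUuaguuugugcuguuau
let-7i-5p: uGAGGUAGuaguuugugcuguu

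Of the 3p rows, those tested between groups are shown, because they share a seed or differ in it.
let-7a-1-3p: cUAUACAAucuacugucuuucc
let-7c-2-3p: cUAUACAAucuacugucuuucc
mir-98-3p: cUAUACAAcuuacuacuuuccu
let-7f-2-3p: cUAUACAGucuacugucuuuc
let-7a-2-3p: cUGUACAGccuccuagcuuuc
let-7g-3p: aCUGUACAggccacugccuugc

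Among the 21 rows with a sequence, the let-7 seed GAGGUAG was shared by 10, but only 2 of them, let-7c-2-5p and let-7k-5p, had reads. The most abundant row, let-7j-5p, does not carry it: its seed is GAGGUAU, which none of the other matched rows has. Counted from 1 at the 5′ end, let-7i-5p and let-7j-5p differed over 22 bases by G8U alone, at the last base of the seed, and let-7j-5p has 2 more bases at its 3′ end. The row of let-7i-5p was at 0 in all 15 libraries, which does not show that this miRNA is absent from the heart, as why most 5p rows of the family are listed at 0 is not known. Likewise, let-7b-5p and let-7k-5p differed over the 19 bases of the latter by U9G, just after the seed, and A19G near the 3′ end leads from let-7a-1-5p to the sequence of let-7c-2-5p. On the 3p side, let-7a-1 and let-7c-2 give the same mature sequence. From let-7a-1-3p to let-7f-2-3p there is A8G over 21 bases, within the seed. The handling of reads that match several miRNAs was not given in the sources used here. Rows this alike can exchange reads, and their separate values are therefore uncertain.

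The precursors lie in several places of the mouse genome (GRCm38, GENCODE annotation). The let-7c-2 precursor is on chromosome 15 from 85706603 to 85706697 on the plus strand, 621 bases before let-7b, and both overlap an exon of the long non-coding RNA Lncppara. Mir-98 (chromosome X, 151913214 to 151913321, plus strand) lies 785 bases after let-7f-2, and both are within an intron of Huwe1, which encodes a ubiquitin ligase. Let-7a-1 (chromosome 13, 48538179 to 48538272, minus strand) shares the exon of a long non-coding RNA, 6720427I07Rik, with let-7f-1 and let-7d. Let-7g lies in an intron of Wdr82 on chromosome 9. The precursors of let-7j (chromosome 3, 140028249 to 140028370, plus strand) and let-7k (chromosome 5, 147283189 to 147283298, minus strand) overlap no annotated gene.

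Only 1 of the 12 precursors, let-7c-2, had reads on both arms. Reads were on the 3p arm alone for 6 precursors, on the 5p arm alone for 2, and on neither arm for 3, which were let-7b, let-7d and let-7f-1. These are counts of rows, and do not tell which precursors were expressed. Over the whole table, 357 of 918 precursors had reads on both arms, 269 on the 3p arm alone, 181 on the 5p arm alone and 111 on neither. No row of let-7c-1 or let-7e was among those analysed here.

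**Figure D1:**
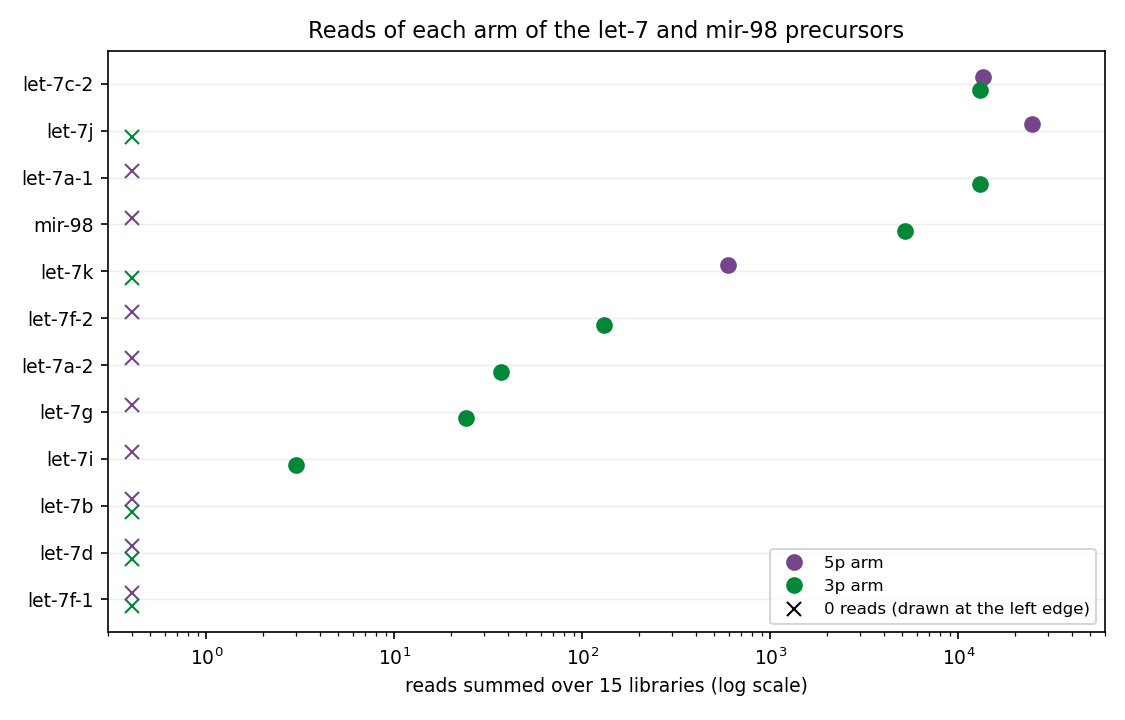
Reads of the 5p arm (purple) and the 3p arm (green) of each let-7 and mir-98 precursor, summed over 15 libraries, on a log scale, with arms at 0 drawn as crosses at the left edge. Let-7c-2 alone has reads on both arms, 13518 on 5p and 12960 on 3p.

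Summed over the 15 libraries, let-7j-5p held 24604 reads, let-7c-2-5p 13518 and let-7k-5p 593. Of the 3p rows, let-7a-1-3p held 12994 reads, let-7c-2-3p 12960, mir-98-3p 5181, let-7f-2-3p 130, let-7a-2-3p 37, let-7g-3p 24 and let-7i-3p 3. Among the 1164 rows of the table with reads, let-7j-5p ranked 14th by mean CPM, let-7c-2-5p 27th and mir-98-3p 56th. All members together took 0.867% to 1.16% of the reads of a library, or 0.710% to 0.974% with the shared 3p sequence counted once. Within the 5p reads of the family, let-7j-5p took 58.3% to 67.2%. The order is one of reads per row of mature sequences of 19 to 24 bases, and how evenly library preparation captured them was not tested.

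In this order, let-7j-5p was above let-7c-2-5p in 15 of 15 libraries without overlap, and the 3p pair was above mir-98-3p in 15 of 15. Let-7c-2-5p and let-7a-1-3p did not differ beyond their spread, as the first was higher in 8 of 15 libraries. Mir-98-3p and let-7k-5p were also apart in all 15 libraries, as were let-7k-5p and let-7f-2-3p. At the low end, let-7a-2-3p was above let-7g-3p in only 8 of 15 libraries, and both held at most 5 reads in a library.

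The first question was how AGAT deficiency relates to these levels. Mir-98-3p, the partner strand of the mir-98 guide, whose own row was at 0, stood lower in AGAT-/- than in wt mice on average but did not pass the test. In wt mice 1 to 5 it was at 876, 832, 1106, 634 and 1001 CPM. In AGAT-/- mice 6 to 10 it was at 579, 686, 686, 802 and 656 CPM. Wt mouse 4 sat within the AGAT-/- range and the other 4 wt mice above all AGAT-/- mice, so the groups overlapped by that mouse alone. The means were 889 CPM ± 179 (SD, n = 5) in wt and 682 CPM ± 80.5 (SD, n = 5) in AGAT-/- mice, and the log2 fold change was -0.40 (SE 0.13, 95% interval -0.68 to -0.12). With edgeR's quasi-likelihood test and Benjamini-Hochberg adjustment over all miRNAs tested, the FDR was 0.190 (unadjusted p = 0.0077). Without wt mouse 4 the log2 fold change was -0.49 and the FDR 0.0278, and with each of the 10 mice left out in turn the FDR ran from 0.0278 to 0.556. Wt mouse 4 also had the lowest share of reads on the family among all 15 mice, 0.867%, or 3839 reads.

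The abundant 5p rows had log2 fold changes smaller in size than that of mir-98-3p, and whether they differ from it was not tested. Let-7j-5p was at 3105, 3570, 3444, 3538 and 3747 CPM in wt mice 1 to 5. In AGAT-/- mice 6 to 10 it was at 3560, 4403, 4399, 3294 and 3725 CPM. Mice 7 and 8 were above all wt mice, while the other 3 were within the wt range. The means of 3481 CPM ± 237 and 3876 CPM ± 503 (SD, n = 5 each) gave a log2 fold change of 0.14 (SE 0.09, FDR = 0.636, edgeR). With single mice left out it ran from 0.08 (without AGAT-/- mouse 7) to 0.23 (without AGAT-/- mouse 6).

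Let-7c-2-5p, the row with reads that stands for a classical let-7 guide, was at 1780, 1668, 2230, 1946 and 2364 CPM in wt mice 1 to 5. It was at 1694, 2438, 2385, 1711 and 1893 CPM in AGAT-/- mice 6 to 10. The groups covered nearly the same range, and mice 7 and 8 were again the highest AGAT-/- mice. The log2 fold change was 0.01 with a 95% interval of -0.26 to 0.27 (FDR = 0.978, edgeR).

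Over the 9 members with more than 10 reads in this comparison, none passed the FDR of 0.05 in AGAT-/- against wt mice with edgeR, where 12 of 562 miRNAs (2.14%) did. DESeq2 and limma-voom called none of them either, and 1 of 9, mir-98-3p, had an unadjusted p under 0.05, as did 10.7% of all miRNAs tested. The number of members under 0.05 was 0 without wt mouse 3. It was 2 without AGAT-/- mouse 9 or 10 and for rows with at least 1 read. Of the 9 log2 fold changes, 7 were above 0 and 2 below, with a median of 0.03 beside -0.04 over all miRNAs. This count includes the shared 3p sequence as 2 rows and moves with single mice, to 4 above 0 and 5 below without wt mouse 1 and to 5 and 4 without AGAT-/- mouse 7. It was 6 and 3 without wt mouse 2, AGAT-/- mouse 8 or AGAT-/- mouse 10. The median size was 0.17 beside 0.25 over all. No member had groups that did not overlap, against 3.38% of all miRNAs tested. Lower rows left wide intervals: for let-7g-3p, with 8 reads in wt and 10 in AGAT-/- mice, the interval ran from -1.29 to 1.76, so that differences of that size were not detectable at this depth. In bulk tissue, fewer cells of a type and less RNA per cell cannot be told apart.

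**Figure D2:**
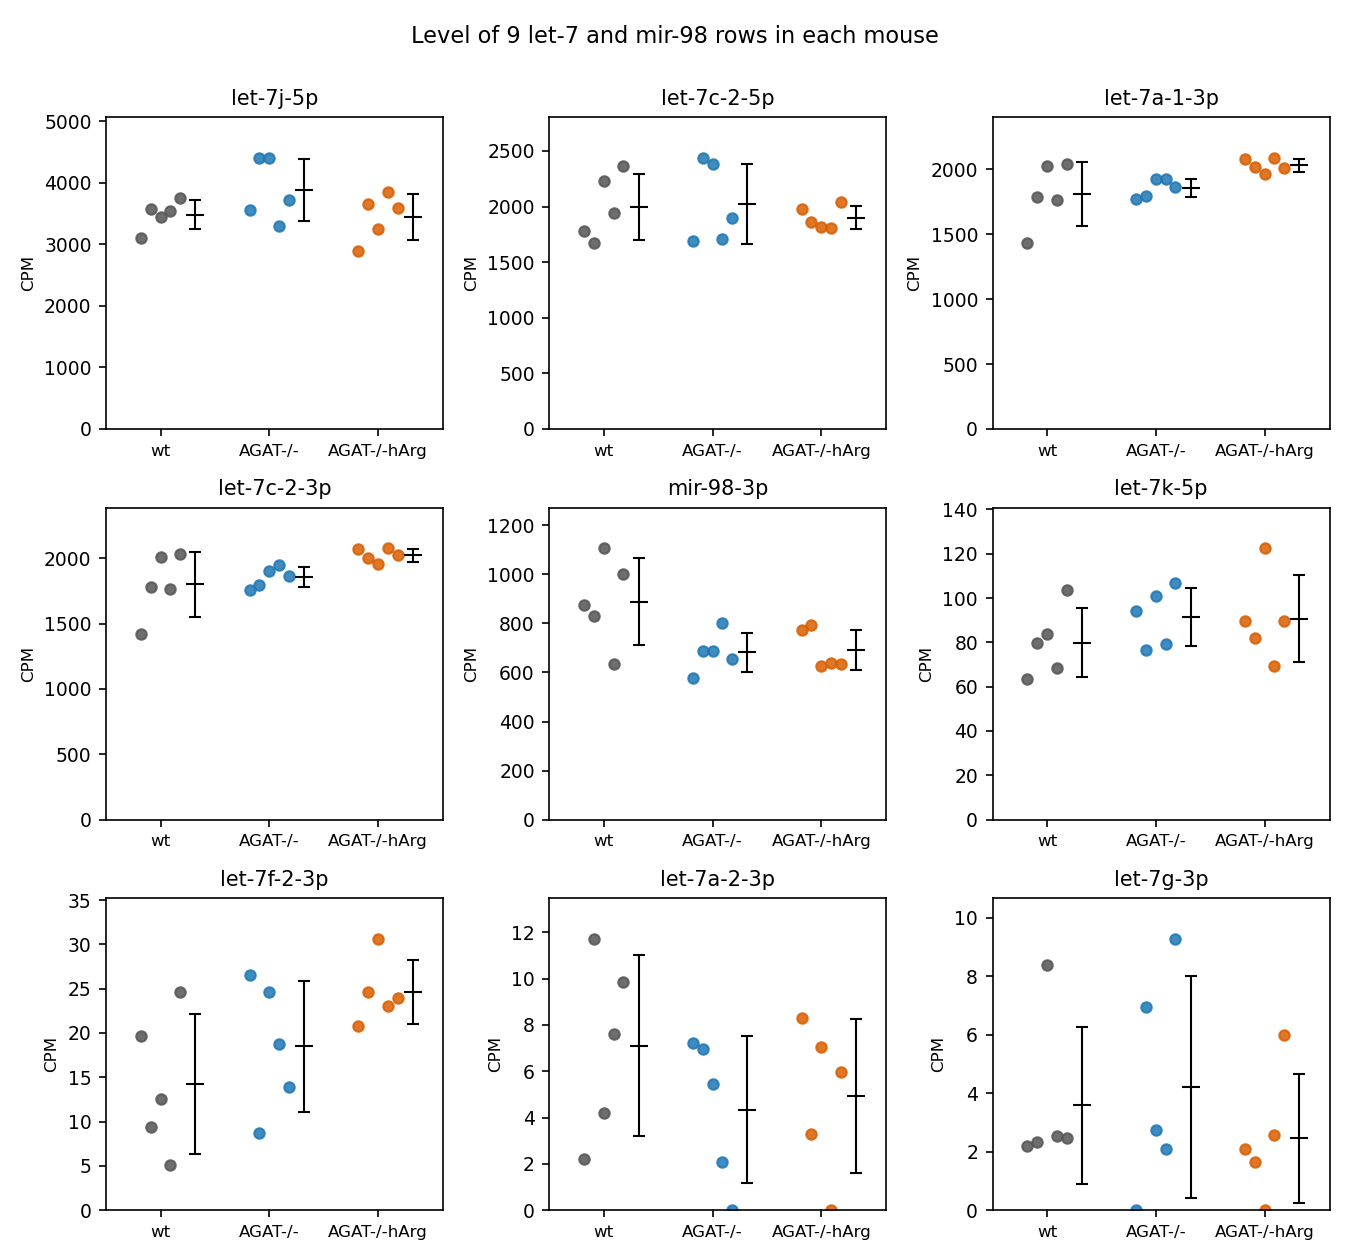
CPM after TMM normalization of the 9 members tested, 1 point per mouse, with the mean ± SD (n = 5) in black beside each group; each panel starts at 0 and has its own scale. Mir-98-3p has a mean of 889 CPM in wt mice against 682 and 693 CPM in the other groups, with wt mouse 4 at 634 CPM among their values.

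The next comparison was of AGAT-/-hArg with AGAT-/- mice, where homoarginine and lane changed together. Mir-98-3p was at 772, 793, 629, 639 and 634 CPM in AGAT-/-hArg mice 11 to 15, all within the range of the AGAT-/- mice. The log2 fold change was 0.03 with a 95% interval of -0.20 to 0.27 (FDR = 0.970, edgeR). Let-7j-5p was at 2888, 3655, 3253, 3842 and 3581 CPM in AGAT-/-hArg mice 11 to 15. Its mean of 3444 CPM ± 377 (SD, n = 5) gave a log2 fold change of -0.16 against AGAT-/- mice (SE 0.10, FDR = 0.758, edgeR), and the groups overlapped. With single mice left out it ran from -0.23 to -0.10, the latter without AGAT-/- mouse 7. Let-7c-2-5p kept a narrow range in these mice, from 1803 to 2042 CPM, with a coefficient of variation of 5.49% against 17.9% in AGAT-/- mice. The log2 fold change was -0.08 (FDR = 0.950, edgeR), and the difference in spread was not tested.

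The 3p sequence shared by let-7a-1 and let-7c-2 separated these groups by a small margin. As counted on let-7a-1-3p, AGAT-/- mice 6 to 10 were at 1772, 1797, 1923, 1927 and 1865 CPM. AGAT-/-hArg mice 11 to 15 were at 2076, 2014, 1963, 2088 and 2012 CPM. All 5 supplemented mice were thus above all 5 untreated ones. This held with total counts or DESeq2 size factors as the scaling and with the 3 most abundant miRNAs left out. On let-7c-2-3p the gap with TMM was narrower, from 1952 CPM in the highest AGAT-/- mouse to 1954 CPM in AGAT-/-hArg mouse 13. In that mouse 1 read is 2.35 CPM. The log2 fold change of let-7a-1-3p was 0.14 (SE 0.08, 95% interval -0.02 to 0.30) and did not pass (FDR = 0.730, edgeR). The wt mice, at 1436, 1787, 2023, 1761 and 2044 CPM, overlapped both groups. With total counts as the scaling, however, the supplemented mice (2091 to 2149 CPM) were also all above the wt mice (1473 to 1995 CPM). With DESeq2 size factors or the 3 most abundant miRNAs left out, these 2 groups overlapped. Total counts also moved the median log2 fold change of all miRNAs between them from 0.02 to 0.12. The share of all miRNAs that separate with total counts is not given here.

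Of the 9 members, 2 had groups that did not overlap between AGAT-/-hArg and AGAT-/- mice, against 2.41% of the 580 miRNAs tested, and these are the 2 rows of the shared sequence, which count the same molecule. None of the 9 passed the FDR with edgeR, DESeq2 or limma-voom, where 4 of 580 (0.69%) did with edgeR. With TMM and rows of more than 10 summed reads, none had an unadjusted p under 0.05 with edgeR either, against 7.41% of all. The 2 rows of the shared sequence had one with total counts and with more than 10 reads in every library, as did their sum with identical rows summed. Let-7j-5p had one for rows with at least 1 read and without AGAT-/- mouse 9, AGAT-/- mouse 10 or AGAT-/-hArg mouse 14. None of these passed the FDR (edgeR FDR 0.276 to 0.656). The median log2 fold change of the members was 0.03 beside 0.02 over all miRNAs, and all 9 intervals held 0.

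Against wt mice, AGAT-/-hArg mice gave a mir-98-3p level of 693 CPM ± 82.0 (SD, n = 5), a log2 fold change of -0.36 (SE 0.14, 95% interval -0.64 to -0.08). This did not pass (FDR = 0.219, unadjusted p = 0.014, edgeR), and the FDR was 0.0373 without wt mouse 4, within a range of 0.0373 to 0.468 over the 10 mice left out in turn. Both comparisons with wt use the same 5 wt mice, so their likeness is not independent.

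Let-7f-2-3p, from the precursor next to mir-98, had its values on the other side. It held 9, 4, 6, 2 and 10 reads in wt mice 1 to 5 and 10, 15, 13, 9 and 12 reads in AGAT-/-hArg mice 11 to 15. By CPM, wt mouse 5 (24.7) was within the range of the supplemented mice, 20.8 to 30.6, and the other wt mice were below it. The mean was 14.3 CPM ± 7.89 in wt, 18.5 CPM ± 7.40 in AGAT-/- and 24.6 CPM ± 3.65 in AGAT-/-hArg mice (SD, n = 5 each). The log2 fold change of AGAT-/-hArg against wt mice was 0.76 (SE 0.34, 95% interval 0.07 to 1.49), which did not pass (FDR = 0.337, unadjusted p = 0.034, edgeR). Whether it differs from that of mir-98-3p was not tested. Let-7f-2-3p is also 1 substitution from the shared 3p sequence, with 130 reads in all beside 12994 on let-7a-1-3p. The part of exchanged reads in its values was not tested.

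Of the 9 members, none passed the FDR in AGAT-/-hArg against wt mice with edgeR, DESeq2 or limma-voom, where 17 of 569 miRNAs (2.99%) did with edgeR. The 17 calls, 9 higher and 8 lower, became 2 higher and 9 lower without wt mouse 5. They became 3 higher and 7 lower without AGAT-/-hArg mouse 15, and 3 higher and 9 lower without AGAT-/-hArg mouse 14. An unadjusted p under 0.05 was found for 2 of the 9, mir-98-3p and let-7f-2-3p, and for 12.5% of all. This number of members was 1 with DESeq2, and 1 without wt mouse 2 or 4 or AGAT-/-hArg mouse 12 or 13. It was 3 with total counts and 3 with more than 10 reads in every library. With TMM no member had groups that did not overlap, against 3.87% of all. With total counts the 2 rows of the shared 3p sequence did not overlap. The share of all miRNAs with that scaling is not given here, so this count has no background beside it. The log2 fold changes were above 0 for 4 members and below 0 for 5, with a median of -0.02 beside 0.02 over all miRNAs. With total counts as the scaling, the median of all miRNAs in this comparison moved up by 0.11, the calls became 24 (16 higher, 8 lower, beside 9 and 8 with TMM), and let-7c-2-5p (-0.07) and let-7j-5p (-0.02) turned to 0.04 and 0.10.

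A single test of any difference among the 3 groups called 21 of 647 miRNAs (3.25%) and none of the 9 members with edgeR, DESeq2 or limma-voom. Mir-98-3p had the lowest FDR of the family, 0.162 (unadjusted p = 0.0068), and was the 1 member with an unadjusted p under 0.05, by each of these tools, beside 11.7% of all miRNAs with edgeR. Its lead over the other members was lost with total counts, where let-7a-1-3p had an FDR of 0.184 and mir-98-3p of 0.359 (edgeR), and without wt mouse 5, where let-7f-2-3p had 0.331 and mir-98-3p 0.388. Mir-98-3p passed with edgeR when rows with at least 1 read were tested (FDR = 0.045) and without wt mouse 4 (FDR = 0.0118). In the other settings and with other mice left out the FDR was 0.106 to 0.494. The other members had FDR values up to 0.937.

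**Figure D3:**
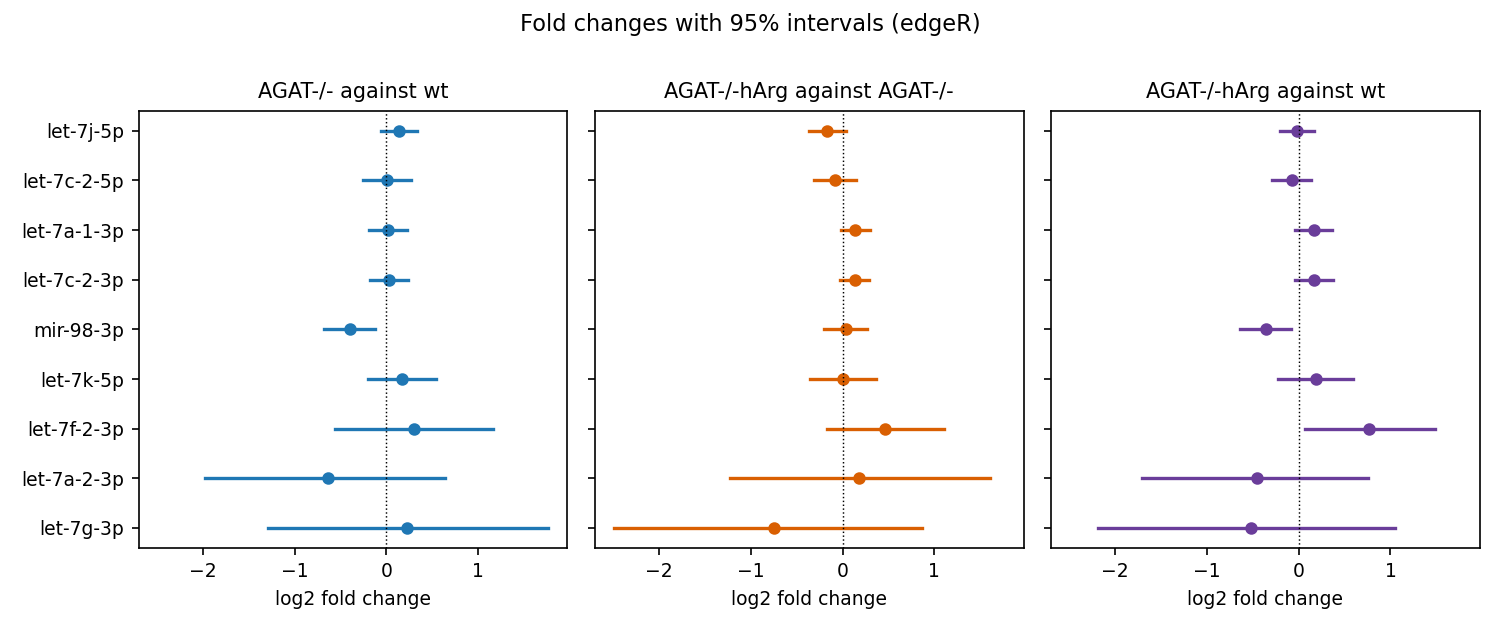
Log2 fold change (points) with its 95% interval (lines) from edgeR for the 9 members in the 3 comparisons, ordered by level. The interval of mir-98-3p leaves out 0 in both comparisons with wt mice, -0.68 to -0.12 and -0.64 to -0.08, and none of the FDR values is at or under 0.05.

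**Figure D4:**
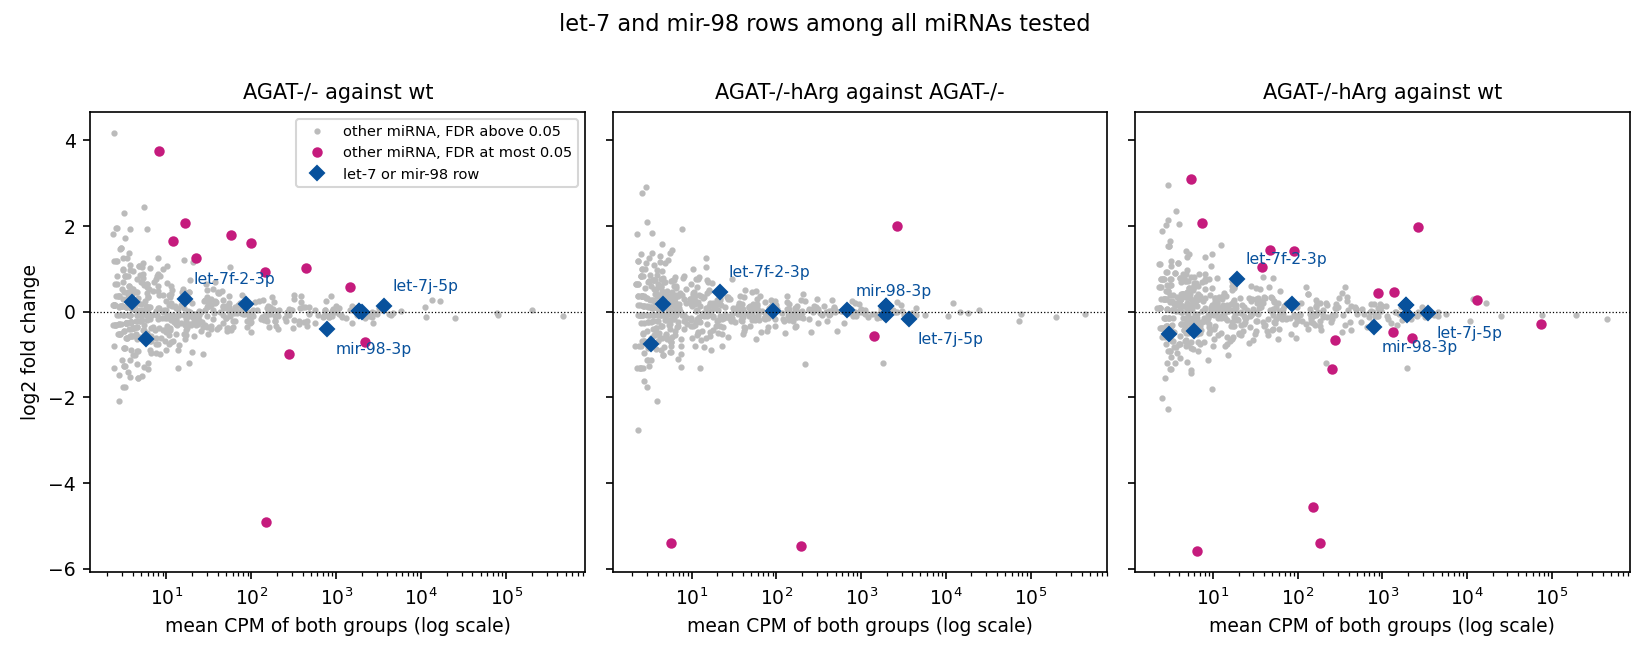
Log2 fold change against the mean CPM of both groups (log scale) for all miRNAs tested, with the members as blue diamonds and other miRNAs at an FDR of at most 0.05 in pink. The members lie among the grey points of like level. They are drawn in blue whatever their FDR, and none of their FDR values is at or under 0.05 in the 3 comparisons.

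Let-7k-5p, whose sequence is a base away from that of let-7b-5p, had 27 to 52 reads in a library. Its mean was 79.8 CPM ± 15.6 in wt, 91.4 CPM ± 13.3 in AGAT-/- and 90.6 CPM ± 19.6 in AGAT-/-hArg mice (SD, n = 5 each). The coefficient of variation was 18.5% over the 15 mice, and counting at its mean of 39.5 reads would alone give 15.9% if reads were independent molecules. For let-7j-5p the coefficient of variation was 11.4% over the same mice. Let-7a-2-3p and let-7g-3p had 0 to 5 and 0 to 4 reads in a library and are not resolved at this depth.

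The row let-7c-2-3p and that of the same sequence, let-7a-1-3p, differed by at most 12 reads in a library, and were equal in 1. Separate counting of molecules at these levels would give a standard deviation of the difference of 36.1 to 49.5 reads. The counts on both rows therefore do not tell how much each precursor contributes. The let-7c-2 hairpin is the only one of the family with reads on both arms, and its 5p to 3p ratio does not depend on library scaling, but its 3p count is that of the shared sequence. The 5p sequence is likewise also made by let-7c-1.

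As log2 of the reads with 0.5 added to each arm, the ratio was 0.33, -0.09, 0.15, 0.14 and 0.22 in wt mice 1 to 5. It was -0.05, 0.44, 0.33, -0.19 and 0.02 in AGAT-/- mice 6 to 10. It was -0.07, -0.11, -0.10, -0.20 and 0.01 in AGAT-/-hArg mice 11 to 15. The 5p arm led in 4 of 5 wt mice and in 3 of 5 AGAT-/- mice, but in only 1 of 5 supplemented mice, and the groups overlapped. Group means were 0.15 ± 0.15, 0.11 ± 0.27 and -0.09 ± 0.08 (SD, n = 5 each).

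The difference of AGAT-/-hArg from wt mice was -0.24 (two-sided exact permutation test over 252 splits, p = 0.0238, adjusted p = 0.0714 over 3 comparisons), and did not pass. That from AGAT-/- mice was -0.20 (exact permutation p = 0.167, adjusted p = 0.25). AGAT-/- and wt mice differed by -0.04 (exact permutation p = 0.77, adjusted p = 0.77). The adjusted p of the first of these was 0.0476 without wt mouse 2, and that of the second 0.0476 without AGAT-/- mouse 9; leaving out single mice gave 0.0476 to 0.143 and 0.0476 to 0.50. The smallest p that these splits can give is 0.0079.

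**Figure D5:**
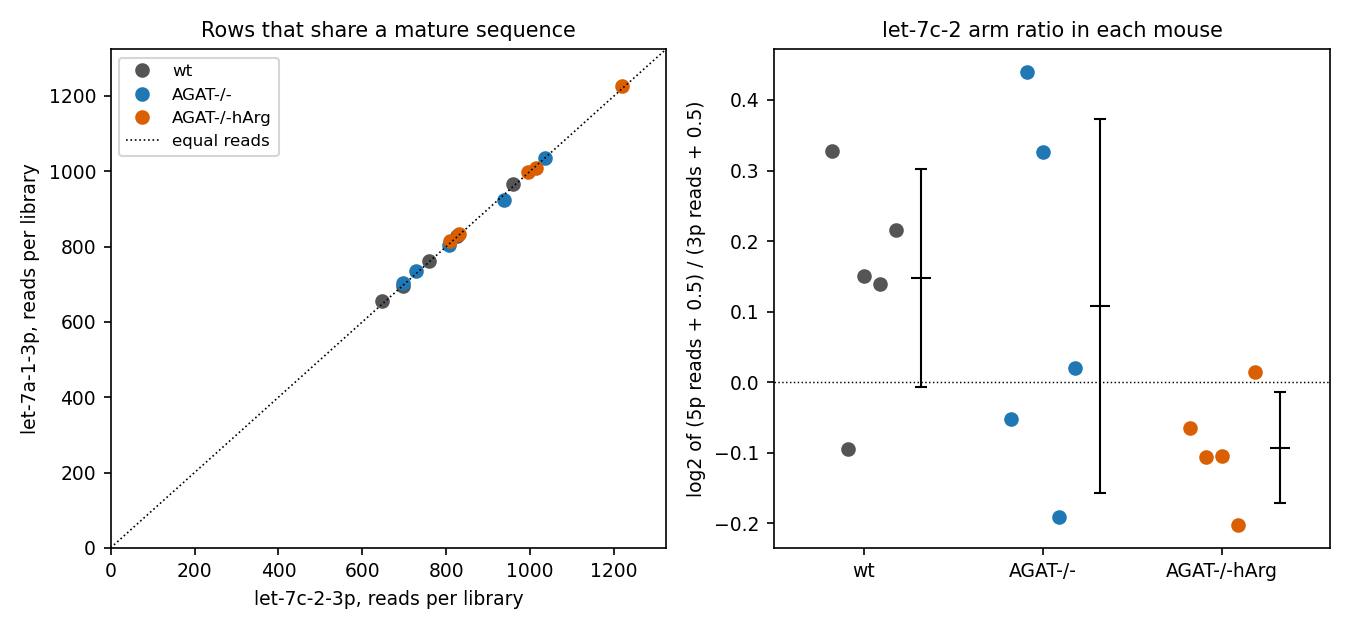
Left, reads of let-7a-1-3p against those of let-7c-2-3p in each library, with the dotted line at equal reads; right, the log2 ratio of 5p to 3p reads of let-7c-2 per mouse, with the mean ± SD (n = 5) in black. The points on the left differ from the line by at most 12 reads, and 4 of the 5 AGAT-/-hArg mice on the right are below 0.

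Summed over the 5p rows, the family was at 5558 CPM ± 475 in wt, 5992 CPM ± 861 in AGAT-/- and 5435 CPM ± 344 in AGAT-/-hArg mice (SD, n = 5 each). Summed over the 3p rows it was at 4527 CPM ± 608, 4421 CPM ± 216 and 4781 CPM ± 140. The largest difference of the 3p means, between AGAT-/-hArg and AGAT-/- mice, was above the SD of either group, but their ranges overlapped (4583 to 4948 and 4143 to 4705 CPM). The sums were not tested. With the shared 3p sequence counted once, which was chosen after seeing the data, the 3p sums were 2717 CPM ± 375, 2564 CPM ± 150 and 2750 CPM ± 101.

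Other mouse miRNAs with a seed of the family were hardly seen. Those of miR-1961, which has the seed GAGGUAG, held 9 reads in all 15 libraries, and miR-202-3p, which shares GAGGUAU with let-7j-5p, held 0. Relatives of the let-7 genes in the genome are mir-99, mir-100 and mir-125, which are transcribed together with some of them, as mir-100 is with let-7a-2. The partner rows were listed for let-7c-1, let-7e and let-7a-2, and of these only let-7a-2 has rows here. A value of a partner row therefore need not go with a precursor followed here. Of 12 partner rows, 6 were in the table and 4 could be tested in each comparison. The row mir-125b-2-3p was at 10955, 12151, 11154, 13947 and 11833 CPM in wt mice 1 to 5. It was at 14894, 13730, 15071, 14306 and 15411 CPM in AGAT-/- mice 6 to 10 and at 14019, 14273, 13836, 14718 and 15360 CPM in AGAT-/-hArg mice 11 to 15. Wt mouse 4 was within the range of both other groups and the other wt mice were below it. The log2 fold change was 0.28 in AGAT-/- against wt mice (SE 0.07), just missing the threshold (FDR = 0.0503, edgeR), and -0.01 in AGAT-/-hArg against AGAT-/- mice (FDR = 0.970, edgeR).

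Of the 4 partners tested, 0 passed with edgeR in AGAT-/- against wt and in AGAT-/-hArg against AGAT-/- mice, where 2.14% and 0.69% of all miRNAs did. At an unadjusted p under 0.05 there were 1 and 0 of the 4, beside 10.7% and 7.41% of all. In AGAT-/-hArg against wt mice, where 2.99% of all miRNAs passed, 1 partner did, mir-125b-2-3p, which was higher with a log2 fold change of 0.27 (SE 0.07, FDR = 0.0419, edgeR). This call was kept with edgeR in 2 of 10 fits with a mouse left out, those without wt mouse 4 (FDR = 0.00307) and AGAT-/-hArg mouse 13 (FDR = 0.0466). It was lost without any single one of wt mice 1, 2, 3 and 5 and AGAT-/-hArg mice 11, 12, 14 and 15 (edgeR FDR 0.0788 to 0.136). It was also lost with family rows of identical sequence summed (edgeR FDR = 0.0945), a setting that merged let-7a-1-3p with let-7c-2-3p. It was lost as well with the 3 most abundant miRNAs left out (edgeR FDR = 0.0705). The call was kept in 7 of 9 other settings, DESeq2 (FDR = 0.0129) and limma-voom (FDR = 0.0167) included. In the fits that lost it, the log2 fold change was 0.247 to 0.283. In AGAT-/- against wt mice, mir-125b-2-3p passed in all 9 other settings, DESeq2 (FDR = 0.00926) and limma-voom (FDR = 0.0195) included. With edgeR it also passed without wt mouse 4 or 5 or AGAT-/- mouse 6, 9 or 10, and over the 10 mice left out in turn the FDR was 0.00217 to 0.182. Mir-99a-3p, at means of 555, 575 and 578 CPM in wt, AGAT-/- and AGAT-/-hArg mice, and both arms of mir-100 did not pass in any setting.

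Ordered by the Pearson correlation of log2 CPM over the 15 libraries, the row most like let-7j-5p among 226 others was let-7c-2-5p (Pearson r = 0.554, Spearman rho 0.439), although its rho was below those of the rows that follow. It was followed by mir-1191b-5p (r 0.502, rho 0.575), mir-1960-5p (r 0.494, rho 0.479), mir-210-5p (r 0.474, rho 0.486) and mir-669c-5p (r 0.471, rho 0.579). For let-7a-1-3p it was let-7c-2-3p (r 0.998, rho 0.986), which has the same sequence, followed by mir-3968-3p (r 0.62, rho 0.371), mir-101a-5p (r 0.575, rho 0.543), mir-128-1-5p (r 0.57, rho 0.479) and mir-7688-5p (r 0.518, rho 0.225). These are descriptions with no test, the libraries share their depth and groups, and the 5p and 3p leaders themselves were hardly alike (let-7j-5p and let-7a-1-3p, r 0.111, rho 0.107).

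The tissue label was set beside miRNAs known from cell types. Of the heart muscle list, mir-1a, mir-133a, mir-208 and mir-499, 8 of 14 rows had reads, led by mir-499-5p, while the 3p rows of mir-1a, mir-133a and mir-208, the usual guides, were at 0. Its summed level per mouse was 1795 to 2106 CPM in wt, 1923 to 2495 CPM in AGAT-/- and 1998 to 2375 CPM in AGAT-/-hArg mice. Red blood cell miRNAs (5 of 8 rows with reads, led by mir-486a-5p, with both arms of mir-451a and mir-144-3p at 0) were at 6543 to 7937, 6412 to 8035 and 6417 to 8010 CPM. Smooth muscle miRNAs (3 of 4 rows, led by mir-145a-3p, with mir-143-3p at 0) were at 9464 to 11910, 10510 to 13940 and 9855 to 16710 CPM. White blood cell miRNAs (4 of 8 rows, led by mir-150-3p, with mir-223-3p, mir-150-5p, mir-142a-5p and mir-142b-3p at 0) were at 60.7 to 126, 76.5 to 97.9 and 47.9 to 83.8 CPM. Those of endothelium, both arms of mir-126a, were at 6.95 to 27.2 CPM in all mice, and the liver miRNA mir-122 had 5 reads in all. None of the 2 skeletal muscle and 6 brain miRNAs listed had a row under those names in the count table. The part of other cells in the let-7 and mir-98 values was not tested.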

How the data were processed

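MiRNA was sequenced from LV tissue of 15 mice. With the CLC Genomics Workbench, the authors assigned reads to murine miRNAs listed in miRBase and deposited the counts as whole reads per mature miRNA, without normalization; the treatment of reads matching several miRNAs was not given in the sources used here. GRCm38 is named in the submitters' processing notes. Groups came from the labels. Each pair of groups was fitted with edgeR 4.0.16 in R 4.3.3 (TMM, glmQLFit, glmQLFTest) for each miRNA whose summed reads in that comparison exceeded 10, and p-values were adjusted by Benjamini-Hochberg over all of them (FDR at most 0.05). CPM used TMM, and log2 CPM a prior count of 1. The arm ratio was compared by exact permutation (scipy 1.17.1, Python 3.11.15). Alternatives were DESeq2 1.42.0, limma-voom (limma 3.58.1), other scalings and filters, all libraries in 1 fit and sums of family rows of identical sequence. Omission of the 3 most abundant miRNAs and omission of each mouse in turn were others. Identical sequences outside the family were not summed. The fits were tested on simulated data. Named miRNAs are all family rows, their genomic partners, those of equal seed, the 5 most alike of 2 leading rows, and cell type lists. Members and lists were chosen with earlier results of these data known.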

Additional observations from a re-analysis of the deposited data

Results flagged for a closer look

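Of 36 groups of 5 values examined for a mouse far from the others, 1 stood out, where chance alone gives about 1 in 20. Let-7g-3p was at 8.38 CPM in wt mouse 3, and the nearest wt mouse was at 2.53 CPM. These values are 4 reads against 1 read in each of the other wt mice, so that they differ by 3 reads.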

How the results depend on the processing

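Over the 9 alternative settings, 223 of 231 log2 fold changes of the members kept their direction and none was called; with single mice left out, 246 of 269 kept it and 2 were called, mir-98-3p without wt mouse 4 in both comparisons with wt mice. For the values that turned the cause was not tested. In AGAT-/- against wt mice, let-7g-3p was -0.0337 with limma-voom. In AGAT-/-hArg against AGAT-/- mice, let-7k-5p was -0.0056 with limma-voom, -0.0053 with all libraries in 1 fit and -0.011 without the 3 most abundant miRNAs. In AGAT-/-hArg against wt mice, let-7c-2-5p was 0.0378 and let-7j-5p 0.0951 with total counts, and let-7j-5p was 0.0088 for rows with at least 1 read and 0.015 for more than 10 reads in every library.

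With single mice left out, log2 fold changes in AGAT-/- against wt mice ran from -0.0512 to 0.119 for let-7a-1-3p, -0.0482 to 0.125 for let-7c-2-3p, -0.123 to 0.832 for let-7g-3p and -0.0800 to 0.125 for let-7c-2-5p. In AGAT-/-hArg against AGAT-/- mice they ran from -0.151 to 0.482 for let-7a-2-3p, -0.0442 to 0.0913 for mir-98-3p, -0.151 to 0.00206 for let-7c-2-5p and -0.151 to 0.0788 for let-7k-5p, and against wt mice from -0.0539 to 0.0488 for let-7j-5p. The let-7c-2 ratio differed by -0.122 to 0.0356 between AGAT-/- and wt mice, by -0.276 to -0.119 between AGAT-/-hArg and AGAT-/- mice and by -0.301 to -0.196 between AGAT-/-hArg and wt mice; with 1 read added all 3 were on the same side of the threshold.

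Members called were 0 to 1 in each comparison with wt mice and in the test of any difference when single mice were left out, and 1 in the latter for rows with at least 1 read. Of all miRNAs, AGAT-/-hArg against AGAT-/- mice gave 4 calls, 8 for rows with at least 1 read and 2 for more than 10 reads in every library. AGAT-/-hArg against wt mice gave 17 calls (9 higher, 8 lower), 28 for rows with at least 1 read, 10 to 20 with single mice left out, and 24 (16 higher, 8 lower) with total counts. The summed 3p level of AGAT-/-hArg mice was 4993 CPM with total counts, more than 1 SD above that with TMM. Let-7f-2-3p, let-7a-2-3p and let-7g-3p gave no value with more than 10 reads in every library, and let-7c-2-3p none of its own with identical rows summed. The lowest members rest on few reads, and no finer difference than their intervals can be resolved at this depth.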
